A study of Mus musculus with 9 samples.

Results

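The Myb family and its MuvB partners are a set of 9 genes: the transcription factors Myb, Mybl1 and Mybl2, the MuvB subunits Lin9, Lin37, Lin52, Lin54 and Rbbp4, and the forkhead factor Foxm1. They were found by matching the Ensembl identifiers of the count tables to mouse gene symbols. All 9 were present among 53379 identifiers, and all 9 passed the filter on low counts that left 19572 genes for testing. The sequenced RNA came from GFP-positive cells that were sorted out of forebrain tissue of C57Bl6DBa2 mice at E16.5, following electroporation in utero at E14.5, 2 days before. The first group had received pCAGGS-GemC1, the second pCAAGS-Mcidas, and the third H2B-GFP alone as far as its label says, and each group held 3 libraries. The sort selected GFP-positive cells in every group. The plasmid backbone pCAGGS is a vector with a strong, broadly active promoter, and counts from a plasmid and from the gene's own locus cannot be told apart. The design text of the series asks how GemC1 starts the multiciliated fate.

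Myb proteins bind DNA through conserved repeats and switch on genes of proliferation and differentiation. Myb itself is best known from blood progenitors and is also needed for multiciliated cells in mouse airway, where it acts early in the programme. Mybl1 is a regulator of male meiosis. Mybl2 is present in nearly all dividing cells, where it joins the MuvB core and later gives way to Foxm1 to drive genes of mitosis. In resting cells the same MuvB core binds E2F4 or E2F5 with a pocket protein, and this assembly, called DREAM, represses cell cycle genes. GemC1 (gene symbol Gmnc) and Mcidas are geminin relatives that act with E2F4 or E2F5 and a DP partner to switch on genes for multiple cilia.

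Upstream sequence was available in RefSeq (build GRCm38.p6) for 6 of the 9 genes, and it is shown for 2 of the 3 paralogues because Myb was called and Mybl2 was not, while both carry the same short motif next to the start. Each line gives 250 bases that end at the base before the RefSeq start, with the E2F core motif GGCGGGA in capitals.
Myb, chr10:21160985-21161234, minus strand: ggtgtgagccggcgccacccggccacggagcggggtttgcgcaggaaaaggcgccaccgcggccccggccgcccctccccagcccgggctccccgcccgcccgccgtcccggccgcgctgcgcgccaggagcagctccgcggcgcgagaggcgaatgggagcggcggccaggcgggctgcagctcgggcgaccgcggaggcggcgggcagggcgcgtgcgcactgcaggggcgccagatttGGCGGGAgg
Mybl2, chr2:163054385-163054634, plus strand: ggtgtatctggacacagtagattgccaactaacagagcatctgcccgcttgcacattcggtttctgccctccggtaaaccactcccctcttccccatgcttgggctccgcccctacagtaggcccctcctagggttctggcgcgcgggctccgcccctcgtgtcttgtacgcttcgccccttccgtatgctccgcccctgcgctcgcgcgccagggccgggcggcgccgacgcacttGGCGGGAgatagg
The motif begins at -9 in Myb and at -13 in Mybl2, counted from the base before the start as -1. Searched on both strands in the window from 250 bases before to 50 after the start, it was found in 11.3% of 32851 promoters of that length. Lin37, Lin52 and 1 of 2 Lin54 promoters also held it, Lin52 at 2 places, and Rbbp4 did not. The letters TTTGAA, the core of the CHR element that Lin54 reads, were present in Lin37 and in both Lin54 promoters, and in 17.9% of all promoters. The letters AACNG, the core that Myb proteins bind, were in the windows of both Myb and Mybl2, and in 80.3% of all promoters. These matches describe letters in a window and say nothing of binding.

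Total counts per library ran from 28515241 to 30288663 in GemC1, from 22914704 to 34860313 in Mcidas and from 34417359 to 41163917 in GFP. Every gene of the set had at least 93 counts in each library. Gmnc stood at 277.2 ± 48.6 CPM (SD, n = 3; CPM is the depth-normalised read count of edgeR, from TMM-scaled library totals) in GemC1 libraries and at 0 counts in GFP libraries, and Mcidas at 497.3 ± 105.1 CPM in Mcidas libraries and 0.67 ± 0.02 CPM in GFP libraries. GemC1 libraries also held 70.0 ± 8.67 CPM of Mcidas, and Mcidas libraries 0.173 ± 0.15 CPM of Gmnc. The 10 neural progenitor markers checked were all detected in each group, with sums from 1473 to 1614 CPM in GemC1, 1102 to 1368 CPM in Mcidas and 1043 to 1318 CPM in GFP. The 9 neuron markers summed higher, from 4324 to 4826, 4583 to 5340 and 5335 to 6233 CPM in the same groups, so RNA of neuron markers was abundant in the cells labelled as neural progenitors. In such bulk samples fewer cells of a type and less RNA per cell cannot be told apart. The deposited names of the Mcidas tables carry a later year code than all others, and whatever that code marks cannot be told apart from the Mcidas group.

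Myb was the member that changed. It lies on chromosome 10 (21124935 to 21160984, minus strand, GRCm38; ENSMUSG00000019982). It had 37.5, 47.1 and 45.0 CPM in the 3 GemC1 libraries, from 1063, 1390 and 1368 counts, and 48.6, 52.7 and 67.2 CPM in the 3 Mcidas libraries, from 1687, 1732 and 1553 counts. The GFP libraries held 6.94, 8.30 and 7.95 CPM, from 236, 338 and 265 counts. Every GemC1 and every Mcidas library thus stood above every GFP library, with no overlap. The log2 fold change was 2.48 ± 0.15 (SE) in GemC1 over GFP, a 5.58-fold rise with a 95% interval of 4.45 to 6.99 (edgeR quasi-likelihood test, adjusted p = 1.56e-06). In Mcidas over GFP it was 2.86 ± 0.15, a 7.25-fold rise with an interval of 5.77 to 9.11 (adjusted p = 4.62e-07). Both comparisons used the same 3 GFP libraries. Myb remained called in all 17 alternatives with another scaling, filter, tool, design or library left out, with log2 fold changes from 2.41 to 2.58 in GemC1 and from 2.71 to 2.96 in Mcidas.

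In GemC1 against GFP, 1 of 9 members was called, as higher, beside 5.19% of all tested genes, made up of 3.86% higher and 1.32% lower. In Mcidas against GFP, 1 of 9 was called, again as higher, beside 4.35% of all genes, made up of 4.03% higher and 0.327% lower. The edgeR unadjusted p was under 0.05 for 1 of the other 8 members in each comparison, a cut at which the share of all genes was not computed. DESeq2 also called only Myb among the 9 in both, where it called 8.72% of genes in GemC1 and 5.1% in Mcidas. By log2 fold change Myb stood at place 334 of the 756 genes called higher in GemC1, whose median was 2.16, and at place 341 of 788 in Mcidas, whose median was 2.33. Of 144 genes called higher in GemC1 with an average level at or above that of Myb, 9 had a larger log2 fold change, and in Mcidas this was so for 8 of 131.

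**Figure D1:**
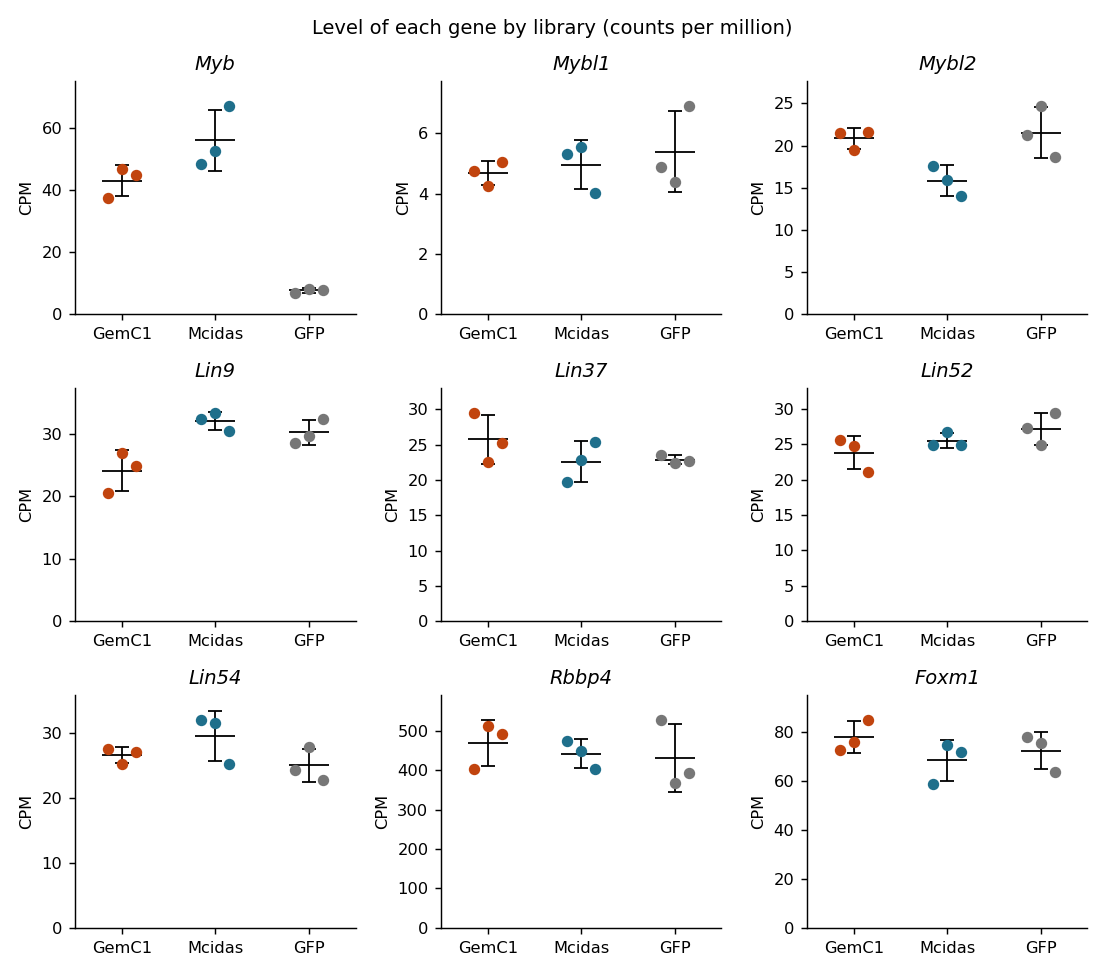
Level of each of the 9 genes in CPM (vertical axes start at 0) in the 3 GemC1, 3 Mcidas and 3 GFP libraries. Points are libraries, long bars are means and error bars are SD. Myb lies between 37.5 and 67.2 CPM in GemC1 and Mcidas libraries and between 6.94 and 8.30 in GFP libraries, while the ranges of most other members overlap between groups.

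A further gene, Gm26577, is annotated on the opposite strand of Myb and shares 559 exonic bases with it, 6.26% of the Myb exons. It had 6.84 ± 0.53 CPM in GemC1, 8.86 ± 2.06 in Mcidas and 1.41 ± 0.34 in GFP libraries (SD, n = 3). Its log2 fold changes were 2.28 ± 0.25 (SE, edgeR adjusted p = 0.000145) and 2.65 ± 0.25 (adjusted p = 3.08e-05) for GemC1 and Mcidas over GFP. The library kits do not mark strand, so reads of Myb and of Gm26577 in the shared part cannot be told apart. Gm26577 (21145094 to 21154374) lies wholly within the span of Myb. Whether its counts outside the shared part come from its own RNA or from Myb RNA was not tested.

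Mybl2, the paralogue of dividing cells on chromosome 2 (163054687 to 163084688, plus strand, ENSMUSG00000017861), was not called in either comparison. It had 21.5, 19.4 and 21.6 CPM in GemC1 libraries, 17.6, 15.9 and 14.0 CPM in Mcidas libraries, and 21.2, 24.7 and 18.6 CPM in GFP libraries. The GemC1 values lay within the GFP range, whereas all 3 Mcidas values were below all GFP values. The log2 fold change was -0.05 ± 0.14 (SE) in GemC1 over GFP (edgeR adjusted p = 0.901, 95% interval -0.35 to 0.26). In Mcidas over GFP it was -0.44 ± 0.14 (interval -0.75 to -0.13) with an unadjusted p of 0.0087, and it did not pass the correction over all genes (adjusted p = 0.139). A processed pseudogene, Gm3320, matches 742 bases of Mybl2 transcripts at 99.7% identity. It is not among the 53379 identifiers counted, and how the authors' counting treated reads that match both is not known here.

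Mybl1, the meiotic paralogue on chromosome 1 (9667415 to 9700209, minus strand, ENSMUSG00000025912), gave from 93 to 230 counts a library. Its values were 4.76, 4.23 and 5.03 CPM in GemC1, 5.30, 5.54 and 4.03 in Mcidas, and 4.88, 4.40 and 6.90 in GFP libraries. The groups overlapped, with log2 fold changes of -0.20 ± 0.23 (SE, edgeR adjusted p = 0.691) and -0.12 ± 0.23 (adjusted p = 0.91). The 95% intervals ran from -0.71 to 0.30 in GemC1 and from -0.62 to 0.39 in Mcidas, which are folds of 0.611 to 1.23 and of 0.65 to 1.31.

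Levels of different genes were compared as CPM per kilobase of exon. Of the summed level of the 3 Myb genes, Myb made up 47.3 ± 4.11% in GemC1, 58.9 ± 6.94% in Mcidas and 13.3 ± 0.999% in GFP (SD, n = 3). Mybl2 made up 44.2 ± 3.40%, 32.4 ± 5.27% and 71.2 ± 5.47% in the same groups. The sum itself was 10.2 ± 0.465 CPM per kilobase in GemC1, 10.6 ± 0.583 in Mcidas and 6.51 ± 0.49 in GFP. Myb was therefore the most abundant family member per length in the mean of GemC1 and in each Mcidas library, and Mybl2 in each GFP library. In GemC1 replicate 1, however, Mybl2 took 47.7% and Myb 43.2%.

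**Figure D2:**
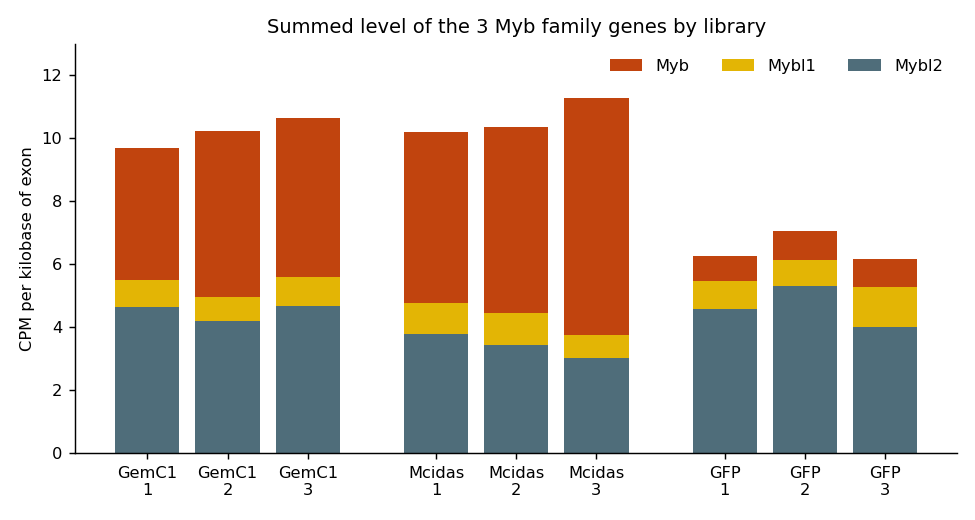
Stacked level of Myb, Mybl1 and Mybl2 in CPM per kilobase of exon (vertical axis), 1 bar for each library, GemC1 and Mcidas left of GFP. The Myb segment is larger in all 6 GemC1 and Mcidas libraries than in the 3 GFP libraries, and the sums run from 9.71 to 11.3 in these 6 and from 6.19 to 7.07 in GFP.

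Among the MuvB subunits none passed the test in either comparison with GFP. Lin9, the subunit that helps hold Mybl2, lies on chromosome 1 (180641150 to 180690694, plus strand, ENSMUSG00000058729). It had 20.6, 27.0 and 24.9 CPM in GemC1, 32.3, 33.4 and 30.5 in Mcidas, and 28.6, 29.7 and 32.4 in GFP libraries. All 3 GemC1 libraries were below all GFP libraries, and the Mcidas range overlapped that of GFP. The log2 fold changes were -0.33 ± 0.12 (SE, edgeR unadjusted p = 0.0196, adjusted p = 0.158) and 0.09 ± 0.12 (adjusted p = 0.869).

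Lin54, the subunit that binds the CHR element, lies on chromosome 5 (100441918 to 100500639, minus strand, ENSMUSG00000035310). It stood at 27.5, 25.2 and 27.0 CPM in GemC1, 32.0, 31.4 and 25.2 in Mcidas, and 24.3, 27.8 and 22.8 in GFP libraries. Both groups overlapped GFP, with log2 fold changes of 0.09 ± 0.13 (SE, edgeR adjusted p = 0.767) and 0.24 ± 0.13 (adjusted p = 0.493). Lin37, a subunit needed for repression by DREAM, lies on chromosome 7 (30555441 to 30559838, minus strand, ENSMUSG00000036845). It averaged 25.8 ± 3.49 CPM in GemC1, 22.6 ± 2.87 in Mcidas and 22.9 ± 0.621 in GFP (SD, n = 3), with log2 fold changes of 0.17 ± 0.13 and -0.02 ± 0.13 (SE). A processed pseudogene of Lin37, Gm8802, had at most 1 count in any library.

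Lin52, which links MuvB to the pocket protein, lies on chromosome 12 (84451422 to 84546145, plus strand, ENSMUSG00000085793). It averaged 23.8 ± 2.36 CPM in GemC1, 25.5 ± 1.07 in Mcidas and 27.2 ± 2.26 in GFP (SD, n = 3), with log2 fold changes of -0.19 ± 0.12 and -0.09 ± 0.12 (SE). Rbbp4, a histone-binding protein that also serves other chromatin complexes, lies on chromosome 4 (129307100 to 129335370, minus strand, ENSMUSG00000057236) and was the most abundant member per kilobase of exon. It had 402.6, 511.6 and 492.4 CPM in GemC1, 473.5, 449.5 and 403.2 in Mcidas, and 528.2, 368.1 and 393.3 in GFP libraries. The highest and the lowest Rbbp4 values both came from GFP libraries, and the log2 fold changes were 0.13 ± 0.13 and 0.04 ± 0.13 (SE). Sync and Gm26722, on the opposite strand, share 782 and 796 exonic bases with Rbbp4, 8.94% and 9.10% of its exons. Gm26722 had 65.2 ± 1.67 CPM in GemC1, 71.0 ± 26.6 in Mcidas and 88.4 ± 10.7 in GFP. As the kits do not mark strand, reads of Rbbp4 and of these 2 genes in the shared parts cannot be told apart.

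Foxm1, the forkhead factor that joins MuvB at mitosis, lies on chromosome 6 (128362967 to 128376146, plus strand, ENSMUSG00000001517). Its values were 72.7, 75.8 and 84.9 CPM in GemC1, 58.8, 74.7 and 71.6 in Mcidas, and 77.8, 75.3 and 63.7 in GFP libraries. The 3 groups overlapped. The log2 fold change was 0.11 ± 0.11 (SE, edgeR adjusted p = 0.664, 95% interval -0.14 to 0.35) in GemC1 over GFP and -0.08 ± 0.11 (adjusted p = 0.865, interval -0.33 to 0.16) in Mcidas over GFP.

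Over the 8 members other than Myb, the edgeR adjusted p ranged from 0.158 to 0.901 in GemC1 and from 0.139 to 0.98 in Mcidas. Their 95% intervals spanned folds from 0.611 to 1.38 in GemC1 and from 0.595 to 1.43 in Mcidas. These are the outer ends of 8 separate intervals, which do not cover the 8 genes jointly and do not exclude larger changes. Of the 9 members, Myb in GemC1 stood above GFP and Lin9 below it without overlap, 1 each, where 13.2% and 11.7% of all tested genes did so. In Mcidas it was also 1 above, Myb, and 1 below, Mybl2, beside 10.7% and 8.87% of all genes. The median log2 fold change of the 9 was 0.09 in GemC1 and -0.02 in Mcidas, beside 0.00 and -0.03 over all genes.

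**Figure D3:**
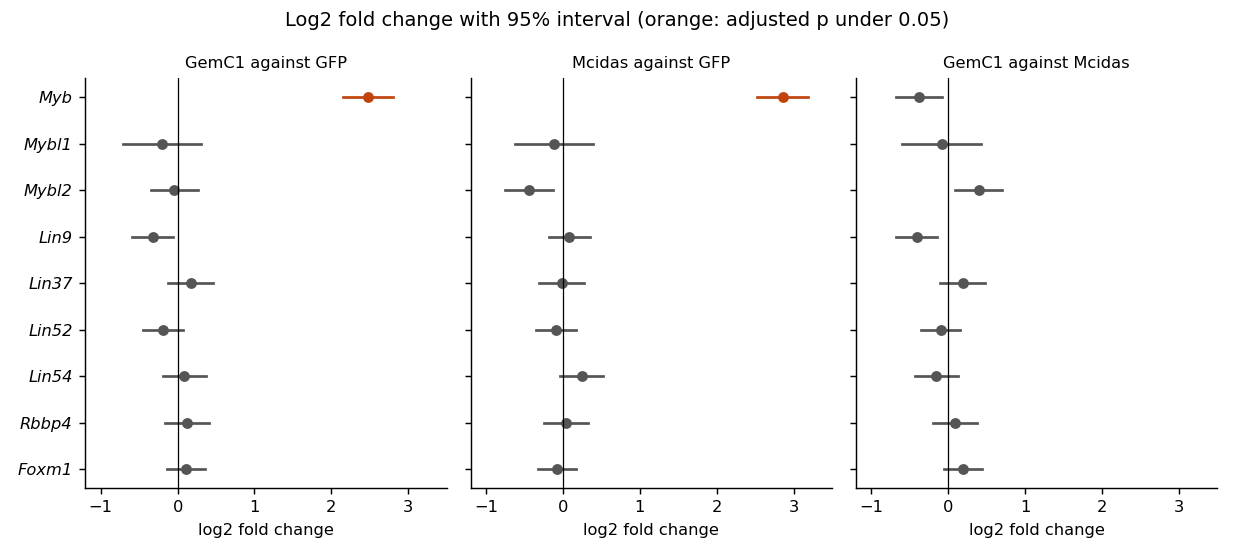
Log2 fold change of each member (horizontal axes, points) with its 95% interval (lines) in 3 panels, each factor against GFP and then GemC1 against Mcidas. Myb stands at 2.48 and 2.86 in the first and second panels, and every other member lies between -0.44 and 0.24 there.

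In the direct comparison of GemC1 with Mcidas none of the 9 was called by edgeR. The background at this adjusted cut was 0.0511% of all genes called, 0.0153% as higher and 0.0358% as lower in GemC1. At the looser cut of an unadjusted p under 0.05 there were 3 of the 9, and the share of all genes at that cut was not computed. Myb stood at 43.2 ± 5.05 CPM in GemC1 and 56.2 ± 9.80 CPM in Mcidas (SD, n = 3), with -0.38 ± 0.14 (SE) as the log2 fold change (edgeR adjusted p = 0.276). Mybl2 was at 20.8 ± 1.22 CPM in GemC1 and 15.8 ± 1.81 CPM in Mcidas, a difference of 0.39 ± 0.14 (adjusted p = 0.268). Lin9 was at 24.1 ± 3.30 CPM in GemC1 and 32.1 ± 1.45 CPM in Mcidas, a difference of -0.41 ± 0.12 (adjusted p = 0.211). DESeq2 called 1 member here, Lin9, as lower in GemC1 (adjusted p = 0.0385), beside 3.28% of all genes. Of the 9, Mybl2 stood above its Mcidas values in GemC1 without overlap, as 9.07% of all genes did, and Myb and Lin9 stood below, as 7.64% did. The intervals of these differences ran from -0.68 to -0.08 for Myb, from 0.09 to 0.70 for Mybl2 and from -0.67 to -0.15 for Lin9.

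Ranked per kilobase of exon, the order in GFP was Rbbp4 at 49.2 ± 9.85 CPM per kilobase, Lin37 at 16.47 ± 0.448, Foxm1 at 12.6 ± 1.31, Lin52 at 8.74 ± 0.726, Mybl2 at 4.64 ± 0.656, Lin54 at 4.29 ± 0.447, Lin9 at 4.18 ± 0.273, Mybl1 at 0.998 ± 0.246 and Myb at 0.865 ± 0.0791 (SD, n = 3). Mybl2, Lin54 and Lin9 overlapped their neighbours in this order, as did Mybl1 and Myb, and the other neighbours were separate. Myb was at place 9 in GFP and at place 5 in both other groups, at 4.83 ± 0.565 CPM per kilobase in GemC1 and 6.29 ± 1.10 in Mcidas. There it overlapped Lin54, whose level was 4.56 ± 0.206 in GemC1 and 5.08 ± 0.654 in Mcidas. The first 4 places were the same in all 3 groups.

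The partners that complete DREAM were examined as a list of 9 genes. In GemC1 over GFP 0 rose and 1 fell by edgeR, beside 3.86% and 1.32% of all genes. In Mcidas none was called, beside 4.03% higher and 0.327% lower over all genes, with 1 of 9 at an unadjusted p under 0.05, a gene that was higher, and 1 called higher by DESeq2. The list medians were 0.08 in GemC1 and 0.06 in Mcidas on the log2 scale. The gene that fell was Dyrk1a, a kinase that phosphorylates LIN52 and so promotes assembly of DREAM in human cells. Its level was 48.1 ± 2.98 CPM in GemC1 and 74.0 ± 5.68 CPM in GFP, which gave -0.62 ± 0.10 (SE) on the log2 scale (edgeR adjusted p = 0.00223), and in Mcidas over GFP its log2 fold change was -0.10 ± 0.10 (adjusted p = 0.773). Dyrk1a was at 68.9 ± 6.08 CPM in Mcidas, and GemC1 against Mcidas gave -0.52 ± 0.10 (edgeR adjusted p = 0.118), a difference that DESeq2 called. E2f4 had log2 fold changes of 0.14 ± 0.13 and 0.06 ± 0.13 and the pocket protein gene Rbl2 of 0.08 ± 0.10 and 0.20 ± 0.10 in GemC1 and Mcidas over GFP.

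Of 10 cofactors and regulators of the Myb protein, 0 rose and 1 fell in GemC1, where 3.86% of all genes were called higher and 1.32% lower. There DESeq2 called 0 higher and 2 lower, beside 8.72% of all genes in either direction. At an unadjusted p under 0.05 there were 1 higher and 2 lower in GemC1. In Mcidas edgeR called none of the 10, where 4.35% of all genes were called, while 1 had an unadjusted p under 0.05 and DESeq2 called 1 higher. The list medians were -0.09 and -0.03 on the log2 scale. The gene that fell was Nlk, a kinase that marks Myb protein for degradation. It had 28.1 ± 1.86 CPM in GemC1 and 39.2 ± 6.71 CPM in GFP (log2 fold change -0.48 ± 0.13, SE, edgeR adjusted p = 0.0469). This call was lost in 10 of 17 alternatives, with adjusted p up to 0.231. Among them were the removal of any GemC1 or Mcidas library or of GFP replicate 2 or 3. In Mcidas over GFP Nlk had -0.19 ± 0.125 (edgeR adjusted p = 0.62). Pim1, which was not called, had larger log2 fold changes of 0.56 ± 0.25 in GemC1 (adjusted p = 0.231) and 0.74 ± 0.25 in Mcidas (adjusted p = 0.164).

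Late cell cycle genes bound by MuvB with Mybl2 or Foxm1 were represented by 59 tested genes. By edgeR 1 of 59 rose and 0 fell in GemC1, where 3.86% of all genes were called higher and 1.32% lower, and likewise 1 rose and 0 fell in Mcidas, where 4.03% were higher and 0.327% lower. DESeq2 called 2 higher and 0 lower in GemC1, and 3 higher and 1 lower in Mcidas. It called 8.72% and 5.1% of all genes in these comparisons, in either direction. The log2 fold change was positive for 40 of 59 in GemC1, with a median of 0.10, and for 31 in Mcidas, with a median of 0.01. Over all genes the medians were -0.0004 and -0.03. At an unadjusted p under 0.05 there were 9 higher and 1 lower in GemC1, and 5 higher and 4 lower in Mcidas. The share of all genes at that cut was not computed, nor the share with a positive log2 fold change. In GemC1 the called gene was Cdk1, the kinase of mitotic entry, at 97.1 ± 2.95 CPM against 64.0 ± 11.7 CPM in GFP (log2 fold change 0.60 ± 0.15, SE, edgeR adjusted p = 0.0408), a call lost in 7 of 17 alternatives, among them without any 1 GemC1 library, Mcidas replicate 2 or GFP replicate 2 or 3. In Mcidas it was Nek2, a centrosomal kinase, at 56.9 ± 17.0 CPM against 30.9 ± 4.81 CPM in GFP (0.88 ± 0.19, adjusted p = 0.0175). That call was lost in 5 of 17 alternatives, among them without Mcidas replicate 2 or 3 or GFP replicate 1 or 3. Cdk1 in Mcidas over GFP had 0.54 ± 0.15 (edgeR adjusted p = 0.0787), and Nek2 in GemC1 over GFP 0.58 ± 0.19 (adjusted p = 0.106). Each gained a call in 3 of 17 alternatives. In GemC1 against Mcidas edgeR called 0 of the 59, beside 0.0511% of all genes. Mki67, the marker of dividing cells, had log2 fold changes of -0.18 ± 0.15 and -0.16 ± 0.15, and Ccnb1, a mitotic cyclin, of 0.00 ± 0.14 and -0.03 ± 0.14 in GemC1 and Mcidas over GFP. Ckap2l, a spindle protein that was not called either, had 0.54 ± 0.20 (edgeR adjusted p = 0.148) and 0.64 ± 0.20 (adjusted p = 0.118).

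Of 38 genes of the G1/S transition that DREAM can repress, edgeR called 5 higher and 0 lower in GemC1, beside 3.86% and 1.32% of all genes, and 6 higher and 0 lower in Mcidas, beside 4.03% and 0.327%. DESeq2 called 7 higher and 0 lower in GemC1, and 7 higher and 1 lower in Mcidas, where its shares of all genes were 8.72% and 5.1%. The log2 fold change was positive for 32 of 38 in GemC1, with a median of 0.15, and for 18 in Mcidas, with a median of -0.03. Over all genes the medians were -0.0004 and -0.03. At an unadjusted p under 0.05 there were 7 higher and 0 lower in GemC1, and 10 higher and 5 lower in Mcidas. Shares of all genes at that cut or with a positive log2 fold change were not computed. E2f7, an E2F repressor, had 82.6 ± 4.76 CPM in GemC1, 96.2 ± 14.8 in Mcidas and 24.2 ± 1.05 in GFP, with log2 fold changes of 1.77 ± 0.12 and 1.99 ± 0.12 (SE). Cdt1, a licensing factor of replication origins, had 68.5 ± 3.40, 143.3 ± 11.3 and 25.3 ± 6.12 CPM in the same groups, and it was lower in GemC1 than in Mcidas (log2 fold change -1.06 ± 0.14, edgeR adjusted p = 0.0234). That last call was lost in 6 of 17 alternatives, among them without any 1 GemC1 library or Mcidas replicate 2 or 3. Slbp, Lig1 and Dtl also rose in both, and Mcm3 in Mcidas (0.74 ± 0.10, adjusted p = 0.000775). In GemC1 over GFP the main edgeR fit did not call Mcm3. Over 17 alternatives its log2 fold change there ran from 0.24 to 0.46, with a call by DESeq2 and without the low-count filter.

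Multiciliated transcription and centriole amplification genes, a list of 16 without the plasmid genes, had 10 members that rose in GemC1, beside 3.86% of all genes, and 11 in Mcidas, beside 4.03%, and 0 that fell. The medians were 1.14 and 1.32. Foxj1, a forkhead factor of motile cilia, had log2 fold changes of 6.83 ± 0.35 and 7.14 ± 0.35 (SE), and Ccno, which sets centriole number, of 4.79 ± 0.25 and 5.12 ± 0.25. Trp73, a p53 relative needed for multiciliated cells in mouse, had 7.74 ± 0.37 and 7.60 ± 0.37, Deup1, of the centriole-producing deuterosome, 8.71 ± 0.60 and 9.55 ± 0.60, and Cdc20b 6.36 ± 0.42 and 6.95 ± 0.42. Relative to the GFP mean, Myb stood 2.27, 2.60 and 2.54 log2 units higher in GemC1 replicates 1 to 3, and the median of the 16 genes 1.01, 1.27 and 1.39. In Mcidas replicates 1 to 3 Myb stood 2.65, 2.76 and 3.12 higher and the median gene 0.96, 1.40 and 1.62. Within both groups the library with the lowest Myb was also that with the lowest median, although with 3 libraries a group no relation was tested.

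**Figure D4:**
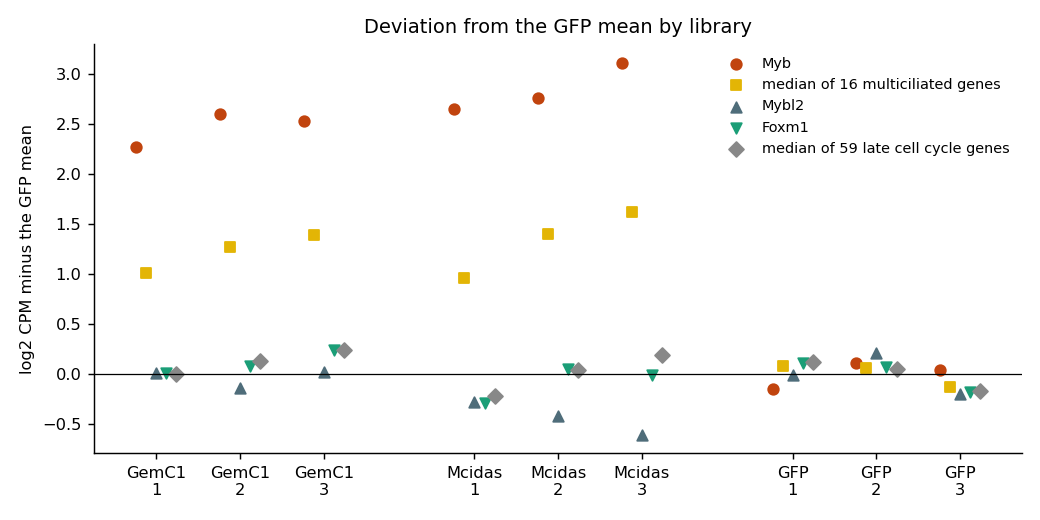
Log2 CPM minus the GFP mean (vertical axis) in each library for Myb, Mybl2 and Foxm1 and for the median of 16 multiciliated genes and of 59 late cell cycle genes. Myb lies between 2.27 and 3.12 in GemC1 and Mcidas libraries, and Foxm1 and the late cell cycle median stay between -0.29 and 0.24 in these libraries, while Mybl2 reaches -0.61 in Mcidas replicate 3.

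Of 16 targets reported for Myb in blood cells, 11 were expressed enough to be tested. Of the 11, edgeR called 0 in either comparison with GFP, beside 5.19% of all genes in GemC1 and 4.35% in Mcidas. DESeq2 also called 0, beside 8.72% and 5.1%. With so few genes, 0 calls is near those shares. The edgeR unadjusted p was under 0.05 for 1 in GemC1 and 0 in Mcidas. The medians of the 11 were -0.02 and -0.04 on the log2 scale. Kit, a receptor tyrosine kinase, had 71.2 ± 16.4 CPM in GemC1, 78.5 ± 23.0 in Mcidas and 83.1 ± 10.6 in GFP. Myc had 15.1 ± 2.52, 17.4 ± 2.74 and 18.2 ± 4.02 CPM in the same groups. Of 12 male meiotic genes reported for Mybl1, 5 were tested and 0 were called by edgeR or DESeq2, again near the shares over all genes. The edgeR unadjusted p was under 0.05 for 0 of the 5. Their medians were 0.27 in GemC1 and 0.59 in Mcidas on the log2 scale, beside -0.0004 and -0.03 over all genes. In each comparison 3 of the 5 had a positive log2 fold change. The 12 summed to 4.61 ± 1.43 CPM in GemC1, 5.63 ± 1.86 in Mcidas and 3.93 ± 0.312 in GFP (SD, n = 3).

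**Figure D5:**
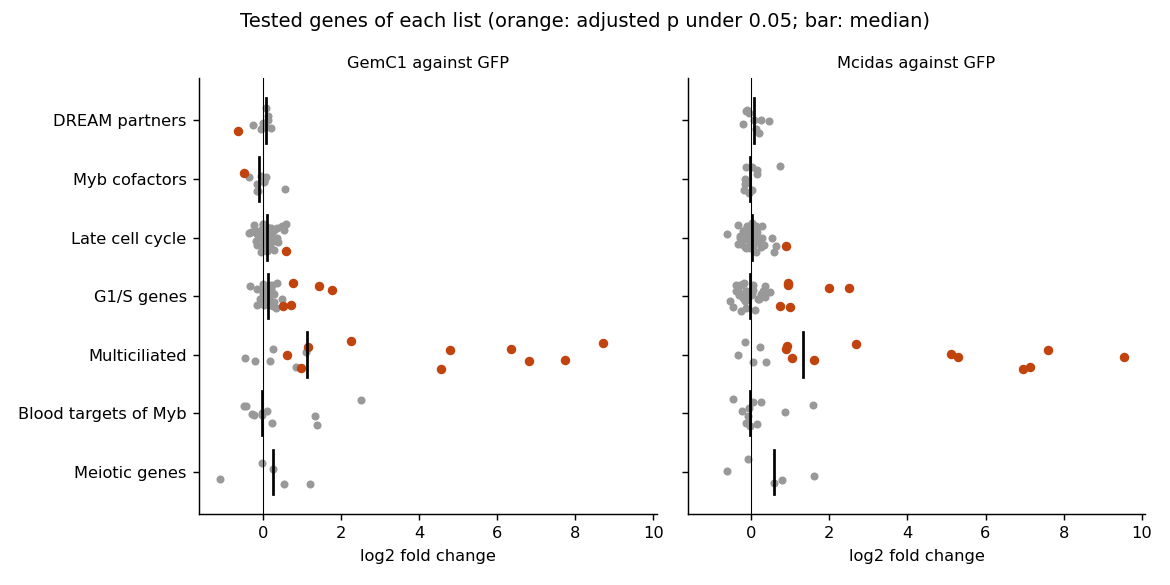
Log2 fold change (horizontal axes) of every tested gene in the 7 lists for GemC1 against GFP and Mcidas against GFP. Orange points passed an adjusted p of 0.05 and bars are list medians, which are 1.14 and 1.32 for the multiciliated list and between -0.09 and 0.59 for the other 6.

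The genes whose pattern over the 9 libraries was most like that of Myb included genes of motile cilia. By Pearson's r of log2 CPM among 11790 genes, the closest were Ccdc180, Cfap45, Lrrc34, Rsph4a, Htatip2 and Wdr63, with r between 0.992 and 0.995. Rsph4a, a radial spoke protein, had 14.1 CPM in GemC1, 27.4 in Mcidas and 0.155 in GFP on average, with log2 fold changes of 6.46 and 7.41 over GFP. In all, 207 genes, Myb itself among them, had r over 0.95. The 6 named genes were all called higher in GemC1 and in Mcidas and averaged at most 0.155 CPM in GFP, so r largely measures that gap. The closest to Mybl2 were Birc6 (r = 0.973), a large inhibitor of apoptosis, then Wasf3, Aldh6a1, Kif26b, Mir5116 and Zfp663 with r down to 0.923. The closest to Foxm1 were Arhgap19 (r = 0.963), then Cyb561a3, Fzd7, Jam2, Knstrn and Cenpl with r down to 0.926. The closest to Mybl1 were Golga7 (r = 0.935), Arhgap33, Hectd2os, Nox1, Pnrc2 and Cept1, the last with r of 0.905. After subtracting the group means, Mybl2 was closest to Adcy7 (r = 0.986) and Foxm1 to Tfap2c (r = 0.983). Fewer than 9 of the 9 deviations are free to vary once the group means are removed. Among the 36 pairs of members, r of these deviations ran from -0.758 for Lin9 with Lin37 to 0.931 for Mybl2 with Lin54. All these r are the extremes of many, up to 11790 genes searched, and whether they exceed chance was not tested.

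Markers of blood, immune, endothelial and choroid plexus cells were examined beside Myb. Of 11 markers of blood progenitors, Kit alone exceeded 1 CPM on average in any group. The other 10 summed to between 0.428 and 1.16 CPM in GemC1, 0.26 and 0.852 in Mcidas and 0.265 and 0.663 in GFP libraries. Of these, Flt3, Gata2, Gfi1b and Mpo had no count in GemC1, Flt3, Gata1, Gata2, Gfi1b and Mpo none in Mcidas, and Gata1, Gfi1b and Tal1 none in GFP. Microglia and macrophage markers moved with the groups, and of the choroid plexus markers Clic6 did. Of 13 microglia and macrophage markers tested, edgeR called 8 higher in GemC1 and 2 in Mcidas, beside 3.86% and 4.03% of all genes. The sum of the 14 listed ran from 73.3 to 107.3 CPM in GemC1, 48.5 to 69.1 in Mcidas and 31.5 to 44.1 in GFP, with none at 0. The 8 choroid plexus markers summed to 3.42 to 9.10 CPM in GemC1, 2.99 to 7.14 in Mcidas and 0.319 to 0.75 in GFP. Clic6 alone averaged 5.51, 5.34 and 0.11 CPM in these groups, where the mean sums were 5.95, 5.68 and 0.474 CPM. Of the 8, only Clic6 passed the filter, and it rose in both (log2 fold changes 5.68 ± 0.90 and 5.63 ± 0.90, SE, edgeR adjusted p = 0.00295 and 0.00246). Ttr and Kl had no count in GemC1, Folr1 and Prlr none in Mcidas, and Kl and Otx2 none in GFP. Erythroid markers summed to 11.6 ± 6.63 CPM in GemC1, 11.9 ± 13.8 in Mcidas and 17.0 ± 3.58 in GFP (SD, n = 3). Endothelial markers summed to 1.06 ± 0.309, 2.65 ± 1.77 and 1.95 ± 0.695 CPM in the same groups. Of 5 tested in each of these 2 lists, edgeR called 0 in either comparison with GFP, beside 5.19% and 4.35% of all genes. The part of all these markers in the change of Myb was not tested.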

How the data were processed

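The deposited values were raw read counts per Ensembl gene, 1 table per library, per the file headers and their whole-number values. Build mm10, HTSeq 0.5.3, STAR 2.5.2b and DESeq2 1.8.1 are listed without role or order, per the submitters' processing notes; the sources used here do not give the annotation release or strand setting. Per the labels' protocols, SMART-Seq v4 cDNA went into Nextera XT libraries. Of 53379 identifiers 53274 matched GENCODE M21 (GRCm38).

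Counts were tested with edgeR 4.0.16 in R 4.3.3: filterByExpr (minimum count 10), TMM scaling, and a robust quasi-likelihood fit of all 9 libraries with group as the only term, two-sided, with Benjamini-Hochberg adjustment over 19572 genes and calls at 0.05. Log2 CPM used a prior count of 2. Shares of all genes called are given at the adjusted cut only, so counts at an unadjusted p under 0.05 have no such share beside them. The tests were tried on simulated data, and DESeq2 1.42.0, other scalings and filters, a replicate block and leaving out each library were alternatives. All 9 members, at most 5 called genes of each list and the 6 closest patterns were named, with further genes chosen after their values were seen. Members and lists were chosen with earlier results of these data known. Labels name no separate animals or litters, so every p-value reflects only how far these libraries vary, which may be technical. Replicate tables differed beyond sampling noise (chi-square over its degrees of freedom at least 14.1).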

Additional observations from a re-analysis of the deposited data

How the results depend on the processing

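Myb kept its call and direction against GFP, and no other member gained one there, in each of the 18 alternatives, the 2-fold minimum included. Over all genes, calls in GemC1 against GFP numbered 1015, and 1817 with DESeq2 and 571 with a 2-fold minimum; they ranged from 475 to 1131 when 1 library was left out, with the lowest without GFP replicate 3 and 514 without GFP replicate 2. Of the 1015, 756 were higher and 259 lower; DESeq2 gave 1159 higher and 658 lower, no filter 930 and 557, and 42 and 32 were lower without GFP replicates 2 and 3. In Mcidas against GFP the 852 calls ranged from 586 to 1050 with 1 library left out. GemC1 against Mcidas gave 10 calls, and 499 with DESeq2, 195 without a low-count filter, 5 with the 2 groups alone, 5 without plasmid, mitochondrial and haemoglobin counts, and from 4 (without Mcidas replicate 2) to 13 with 1 library left out, with 6 without GemC1 replicate 2 or any 1 GFP library. DESeq2 called 1 member there, Lin9, and edgeR 0; the cause was not tested. With the replicate number as a block, that comparison gave 6 calls, GemC1 against GFP 770 and Mcidas against GFP 712, and no member's call changed. Of the list genes named, Nlk and Cdk1 in GemC1, Ift88 in Mcidas and Cdt1 in GemC1 against Mcidas were not called under the block (adjusted p = 0.0953, 0.0877, 0.0511 and 0.109). Same-numbered libraries correlated between -0.074 and 0.046 over 9 pairs and 2 of 9 libraries correlated best with their own number, so the numbers were not treated as pairs. Among list genes, the calls of Ift88 in Mcidas and Plk4 in GemC1 were lost in 7 and 2 of 17 alternatives. Intervals rest on 3 libraries a group. Levels per kilobase use the union of annotated exons and would move with another annotation.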

Other observations

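The genes that neighbour Myb on chromosome 10 were examined within 500 kb on each side, a window chosen after the values of Myb were known. Ahi1, a gene of the ciliary transition zone that lies 44506 bases away, had 83.7 CPM in GemC1, 104.3 in Mcidas and 78.6 in GFP on average. Its log2 fold change was 0.09 ± 0.10 (SE, edgeR adjusted p = 0.69) in GemC1 over GFP and 0.41 ± 0.10 (adjusted p = 0.0442) in Mcidas over GFP, a call lost in 5 of 17 alternatives, among them without Mcidas replicate 2 or 3 or any 1 GFP library. Hbs1l, a translation rescue factor on the other side of Myb at 134995 bases, had log2 fold changes of 0.00 ± 0.08 and -0.07 ± 0.08. Apart from Myb, Gm26577 and Ahi1, no tested gene in the window was called in either comparison.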
